A study of Mus musculus with 13 samples.

Results

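Immortalized mouse embryonic fibroblast (MEF) lines labelled Prkd3-/- were compared with wild-type (WT) immortalized lines, gene by gene. The comparison takes 7 of the 13 libraries of the series, namely all 4 immortalized libraries labelled Prkd3-/- (lines 13, 13a, 14 and 15) and all 3 immortalized WT libraries (lines 3, 4 and 5). The other 6 libraries are primary MEFs, 3 per genotype (WT 3, 4 and 5 and Prkd3-/- 13, 14 and 15), and they are used to show how the genotypes differed before immortalization. All MEFs of both genotypes were grown in DMEM with 10% fetal calf serum (FCS), and after senescence in serial passage the serum was raised to 20% until colonies grew out spontaneously and established lines. RNA was poly-A selected and sequenced, and the values are read pairs counted per gene.

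Several features of the design limit these lines as a model. Each WT line carries the clone number of 1 primary culture and so do Prkd3-/- lines 13, 14 and 15, whereas lines 13 and 13a carry the same number and may not be independent. The WT and the Prkd3-/- counts were deposited as separate tables, so genotype and table coincide, and a difference between genotypes cannot be told apart from a difference between the submissions. How the Prkd3 allele was made, the mouse strain, the sex of the embryos and the passage at sequencing are not given in the sources used here. The p-values measure the spread between these lines, and the error given with each Log2FC is its standard error (SE).

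Prkd3 encodes protein kinase D3, a serine/threonine kinase of the protein kinase D family, whose members Prkd1, Prkd2 and Prkd3 are activated by diacylglycerol and by phosphorylation through protein kinase C. The family is known for roles in vesicle release from the Golgi, in phosphorylation of class II histone deacetylases and in cell motility and growth. Cultured MEFs stop dividing when the INK4 and ARF inhibitors encoded at Cdkn2a and Cdkn2b and the p53 pathway are engaged, and spontaneous lines arise from rare cells that escape this arrest, often with changed chromosome numbers.

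The immortalized libraries held 65710950 to 69190459 counts in WT and 52659057 to 72695290 counts in Prkd3-/- lines, so that 3 counts correspond to between 0.0398 and 0.0559 CPM (counts scaled to a common library size by TMM). Between 24251 and 27989 genes had a count in an immortalized library, with the fewest in Prkd3-/- line 13 and the most in line 13a. Fibroblast markers summed to 34387 to 70687 CPM in WT and 21029 to 33096 CPM in Prkd3-/- lines. The sums did not overlap, but WT line 5, the lowest of WT, and Prkd3-/- line 14, the highest of Prkd3-/-, lay close together. In each of the 15 markers taken singly the genotypes overlapped, and none was absent. Summed markers of other cell types varied from line to line within both genotypes, from 15.2 CPM in Prkd3-/- line 14 to 366 CPM in line 13a for macrophage markers and from 81.9 CPM in WT line 5 to 2120.1 CPM in Prkd3-/- line 14 for chondrocyte markers. Endothelial markers were low, but their sum separated the genotypes, with 2.64, 12.4 and 5.2 CPM in WT lines 3, 4 and 5 and 17.5, 19.9, 25.1 and 16.2 CPM in Prkd3-/- lines 13, 13a, 14 and 15. Of these 12 markers 7 were tested and edgeR called 0. The genotypes did not overlap in 1 of the 7, Tek, and Sox17 and Cldn5 were at 0 in every line. Schwann cell markers summed to at most 13.8 CPM in any line. Their part in the differences below was not tested. In bulk RNA, fewer cells of a type and less RNA per cell cannot be told apart.

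The targeted gene was still counted in every line labelled Prkd3-/-. Prkd3 (ENSMUSG00000024070; GRCm38 chr17:78949405-79020816, minus strand) had 71.9, 91.7 and 78.2 CPM in WT lines 3, 4 and 5 and 59.6, 48.4, 59.2 and 43.1 CPM in Prkd3-/- lines 13, 13a, 14 and 15. Every Prkd3-/- line lay below every WT line, but the difference did not pass the test (Log2FC -0.62, SE 0.19, edgeR adjusted p = 0.661). In primary MEFs the values were 75.2, 73.2 and 70.3 CPM in WT and 43.9, 41.1 and 34.9 CPM in Prkd3-/- cultures (Log2FC -0.87, edgeR adjusted p = 0.0102). Counts per gene do not show which exons the read pairs came from, so the loss of single exons could not be checked and the genotype is used here as the label gives it.

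Other members of the kinase family did not follow Prkd3. Prkd1 had 32.6, 17.7 and 13.9 CPM in WT and 36, 16.9, 14.4 and 25.7 CPM in Prkd3-/- lines (Log2FC 0.12, SE 0.42, edgeR adjusted p = 0.959). Prkd2 had 19.8, 23.1 and 26.3 CPM in WT and 19.8, 18, 23.7 and 22.4 CPM in Prkd3-/- lines (Log2FC -0.14, SE 0.20, edgeR adjusted p = 0.883). The lines of both genotypes overlapped for both genes. Of the 12 kinase D and C genes listed, 10 were tested, 0 passed the thresholds, and Prkd3 was the 1 gene whose groups did not overlap. Prkcd, a protein kinase C that acts upstream of protein kinase D, ranged from 58.3 to 73 CPM in WT and 29 to 82.8 CPM in Prkd3-/- lines, and Prkce, another such kinase, from 16.5 to 28.9 CPM in WT and 12.8 to 20.9 CPM in Prkd3-/- lines. Among 24 substrates and partners of the family, 0 passed and the median Log2FC was -0.07, beside 0.06 over all genes tested. Sphk2, a sphingosine kinase listed as a substrate, ranged from 43.5 to 50.7 CPM in WT and 27.8 to 35.9 CPM in Prkd3-/- lines (Log2FC -0.59, SE 0.17, edgeR adjusted p = 0.628), without overlap. About 21.9% of its exonic bases are shared with Dbp.

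Averaged over all 7 lines, those of 1 genotype lay about as far from each other as from lines of the other. Over the 19683 genes tested, the root mean square difference in log2 CPM was 1.12 to 1.33 between WT lines, 1.17 to 1.97 between Prkd3-/- lines and 1.08 to 2.05 between lines of different genotype, and the mean distance between genotypes was 1.01 times the mean distance within them. The closest pair of all was Prkd3-/- line 13a and WT line 5, at 1.08. Lines 13 and 13a lay 1.77 apart despite their shared number. Prkd3-/- line 13 lay at least 1.56 from every other line, while Prkd3-/- lines 13a, 14 and 15 lay 1.17 to 1.35 from each other. Primary MEFs differed much less, by 0.354 to 0.394 within WT, by 0.579 to 1.01 within Prkd3-/- and by 0.887 to 0.959 between genotypes. Without line 13 the mean distance was 1.24 within genotypes and 1.31 between them, a ratio of 1.06. Because this line stood apart, values without it are given for the gene lists and proliferation genes that it moved most.

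**Figure D1:**
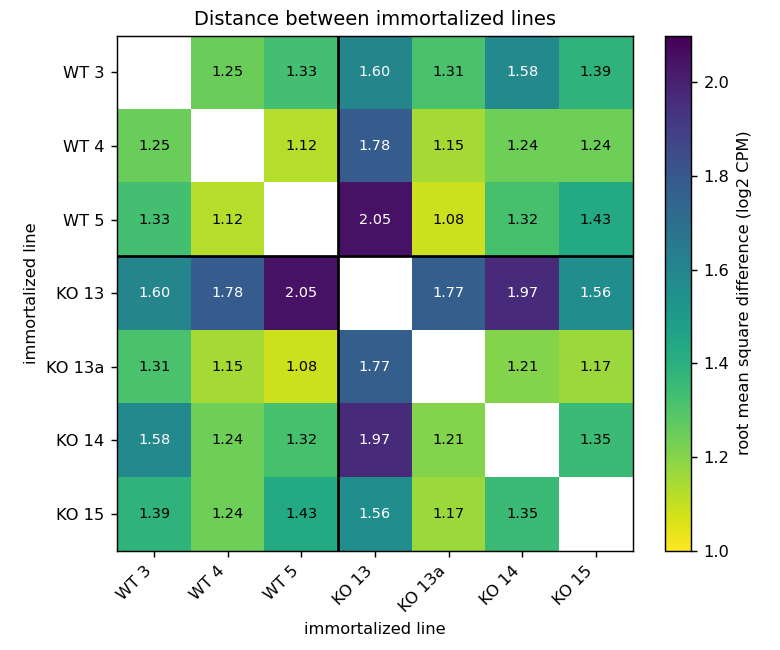
Root mean square difference in log2 CPM between each pair of the 7 immortalized lines over 19683 genes, with rows and columns naming the lines (KO, Prkd3-/-), the value in each square, and black lines dividing the genotypes. Prkd3-/- line 13 is far from all others, and the smallest value, 1.08, joins a Prkd3-/- and a WT line.

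Few genes passed the thresholds between the genotypes. A gene was called when edgeR's quasi-likelihood test gave it an adjusted p-value under 0.01 with a Log2FC of 1 or more in size. By this rule 8 of 19683 genes (0.0406%) were called, 1 higher and 7 lower in Prkd3-/- lines. At an unadjusted p under 0.05 there were 1355 genes (6.88%). DESeq2 with the same thresholds called 181 of 23617 genes (0.766%), 79 higher and 102 lower, among them all 8, and limma-voom called 5. Leaving out WT line 4, WT line 5 or Prkd3-/- line 13a, 14 or 15 left 0 genes called (853 to 1927 at an unadjusted p under 0.05), leaving out WT line 3 left 2, and leaving out Prkd3-/- line 13 left 10. Without regard to a test, every Prkd3-/- line lay above every WT line in 913 genes (4.64%) and below in 810 genes (4.12%). This split depended on the scaling, since with library size alone, where the median Log2FC of all genes moved from 0.06 to 0.21, it was 1992 above and 403 below.

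The called genes were mostly members of families with near-identical copies in the genome. Rpl34, a protein of the large ribosomal subunit, was the only gene called higher. Rpl34 (ENSMUSG00000062006; chr3:130726831-130730398, minus strand) had 4.34, 4.09 and 2.81 CPM in the WT lines and 68.2, 44.9, 44.4 and 44.7 CPM in the Prkd3-/- lines (Log2FC 3.75, SE 0.29, edgeR adjusted p = 0.00672). The WT values lay close together, the Prkd3-/- values were all above them, and line 13 was the highest. Its processed copy Rpl34-ps1 had 85, 96 and 68 CPM in WT and 84.4, 64.9, 57.6 and 66 CPM in Prkd3-/- lines, and these overlapped (Log2FC -0.28, SE 0.21, edgeR adjusted p = 0.786).

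For other families a copy that was low in Prkd3-/- lines had a partner that was high. Rps13-ps1 (ENSMUSG00000066362; chr8:87047689-87048226, plus strand), a processed copy of a small subunit protein gene, had 43.6, 31.6 and 30.1 CPM in WT and 1.36, 1.0, 1.2 and 1.26 CPM in Prkd3-/- lines (Log2FC -4.86, SE 0.25, edgeR adjusted p = 0.00244). In the same lines Rps13-ps2 had 0.157, 3.44 and 8.98 CPM and 42.9, 27, 22.5 and 25 CPM (Log2FC 2.81, SE 1.07, edgeR adjusted p = 0.714). The groups did not overlap in either copy, in opposite directions, and the second did not pass the test.

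Rps3a3 (ENSMUSG00000059751; chr13:108670603-108671397, plus strand), a processed copy of another small subunit gene, fell from 147, 170.3 and 153 CPM in WT to 24.8, 18.5, 18.2 and 21.2 CPM in Prkd3-/- lines (Log2FC -2.92, SE 0.18, edgeR adjusted p = 0.00271). Rps3a1, the gene with introns, had 73.9, 72.4 and 22.2 CPM in WT and 255, 161, 163 and 184 CPM in Prkd3-/- lines (Log2FC 1.76, SE 0.44, edgeR adjusted p = 0.479). Every Prkd3-/- line was above every WT line for Rps3a1, and WT line 5 was lower than both other WT lines.

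The ferritin light chain family, whose proteins store iron, showed the same opposition. Ftl2-ps (ENSMUSG00000082062; chr4:125504288-125504839, plus strand) had 136, 225 and 307 CPM in WT and 1.16, 0.527, 0.338 and 0.437 CPM in Prkd3-/- lines (Log2FC -8.51, SE 0.59, edgeR adjusted p = 0.00441). Ftl1-ps2 ranged from 7.18 to 16.1 CPM in WT and 0.318 to 0.559 CPM in Prkd3-/- lines (Log2FC -4.70, SE 0.42, edgeR adjusted p = 0.0136). Ftl1, the parent gene, had 368, 574 and 307 CPM in WT and 1202, 1695, 772 and 985 CPM in Prkd3-/- lines (Log2FC 1.48, SE 0.36, edgeR adjusted p = 0.45). With Ftl1-ps1, which ranged from 72.4 to 120.2 CPM in WT and 176 to 374 CPM in Prkd3-/- lines (Log2FC 1.54), 2 members lay higher and 2 lower without overlap, and of these Ftl2-ps passed the test.

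Mir692-2 (ENSMUSG00000094403; chr4:125504749-125504857, plus strand) overlaps the end of Ftl2-ps, with which 83.5% of its bases are shared, and a pair over the overlap can count for both. It had 57.5, 96.6 and 129 CPM in WT and 0.671, 0.378, 0.261 and 0.358 CPM in Prkd3-/- lines (Log2FC -7.82, SE 0.48, edgeR adjusted p = 0.00271). Mir686 (chr14:54616677-54616785, minus strand), all of whose bases lie in exons of Psmb5, had 6.85, 6.84 and 5.29 CPM in WT and 34.3, 26.5, 22.7 and 26.5 CPM in Prkd3-/- lines and did not pass (Log2FC 2.12, SE 0.24, edgeR adjusted p = 0.0459). Reads of a poly-A library over these loci do not measure the mature miRNAs. Their sequences, from RefSeq on GRCm38.p6, are shown 5′ to 3′ with the seed (bases 2 to 8) in capitals, to tell which miRNA each locus names.
mmu-miR-692: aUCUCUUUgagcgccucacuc
mmu-miR-686: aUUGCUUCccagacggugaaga
The seeds differ.

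The other called genes were Gm11942, Gm9008 and Xist. Gm11942 (ENSMUSG00000094344; chr4:32964888-32965232, plus strand), a processed pseudogene, had 47.9, 39.6 and 47.7 CPM in WT and 3.41, 2.8, 4.25 and 2.76 CPM in Prkd3-/- lines (Log2FC -3.77, SE 0.24, edgeR adjusted p = 0.00271). Gm9008 (ENSMUSG00000072476; chr6:76495432-76497784, minus strand), a predicted gene, had 10.1, 12 and 8.34 CPM in WT and 0.131, 0.0405, 0.107 and 0.106 CPM in Prkd3-/- lines (Log2FC -6.71, SE 0.46, edgeR adjusted p = 0.00432). All 8 called genes were also called, in the same direction, between the primary MEFs of the same genotypes, where 156 of 20403 genes (0.765%) passed.

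Xist, the RNA that coats the inactive X chromosome in female cells, was almost absent from Prkd3-/- lines. Xist (ENSMUSG00000086503; chrX:103460366-103483254, minus strand) had 166, 153 and 55.2 CPM in WT and 0.0559, 0.0135, 0.154 and 0.0795 CPM in Prkd3-/- lines (Log2FC -10.66, SE 0.79, edgeR adjusted p = 0.0059), and primary MEFs had 46.7, 44.5 and 56.9 CPM and 0.0587, 0 and 0 CPM. Its antisense partner Tsix ranged from 4.3 to 13.7 CPM in WT and 0 to 0.106 CPM in Prkd3-/- lines, but 32.6% of its exonic bases are shared with Xist and the counting of the WT table ignored strand. Y-linked genes were counted in both genotypes. Ddx3y had 0.205, 32.4 and 64.1 CPM in WT and 150.0, 66.8, 67.3 and 46.6 CPM in Prkd3-/- lines, so that WT line 3 was near 0 while lines 4 and 5 held both Xist and Y-linked RNA. Uty and Kdm5d were also near 0 in WT line 3, with 0.142 and 0.0157 CPM, and had higher values in every Prkd3-/- line than in any WT line. Eif2s3y had 0.0157, 10.6 and 22 CPM in WT and 0.0746, 32.2, 2.4 and 26.1 CPM in Prkd3-/- lines, which set Prkd3-/- lines 13 and 14 apart from 13a and 15. The WT primary cultures, which also held Xist, had 64.4, 64.6 and 52.5 CPM of Ddx3y. The study's methods describe WT MEFs from different embryos, and whether each culture held cells of 1 embryo was not tested. Xist thus moved with genotype, and the part of the embryos' sex in the other differences was not tested.

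**Figure D2:**
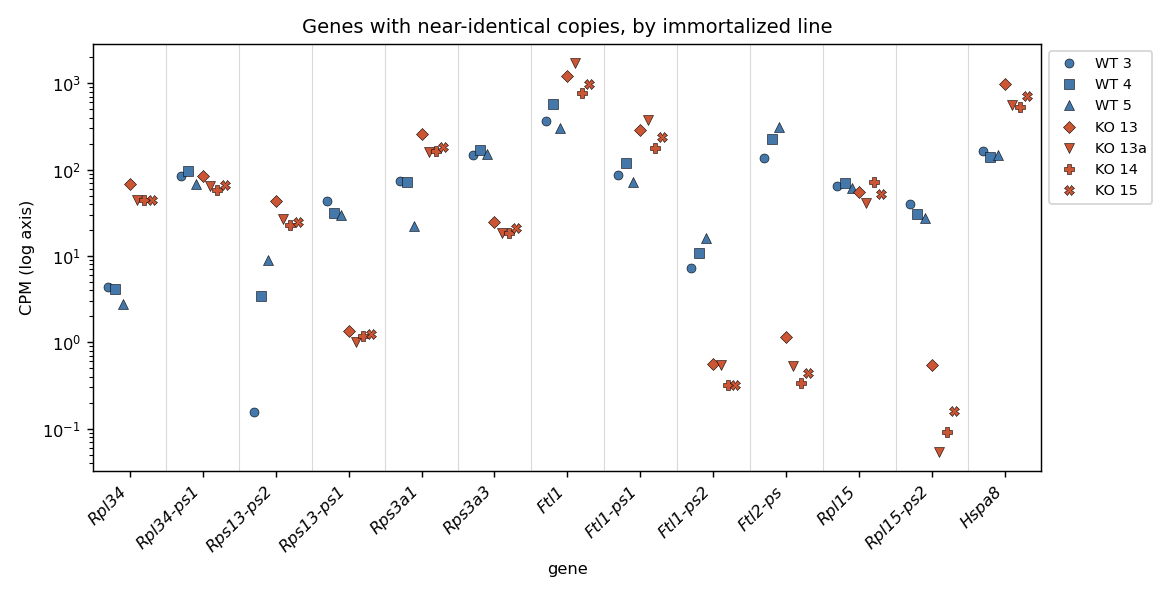
CPM on a log axis in each of the 7 immortalized lines (blue WT, red Prkd3-/-, 1 symbol per line) for ribosomal protein, ferritin and Hspa8 genes and their copies. Rps13-ps1, Rps3a3, Ftl1-ps2, Ftl2-ps and Rpl15-ps2 are low in all 4 Prkd3-/- lines while Rpl34, Rps13-ps2, Rps3a1, Ftl1, Ftl1-ps1 and Hspa8 are high in all 4.

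Other genes of families with copies missed the threshold. Rpl15-ps2 had 40.4, 30.4 and 27.4 CPM in WT and 0.541, 0.054, 0.0921 and 0.159 CPM in Prkd3-/- lines (Log2FC -7.29, SE 0.83, edgeR adjusted p = 0.0533), while its parent Rpl15 ranged from 61.9 to 69.3 CPM in WT and 41.4 to 71 CPM in Prkd3-/- lines, with overlap. Hspa8, a constitutive heat shock chaperone with many processed copies, had 166, 139 and 149 CPM in WT and 971, 564, 534 and 704 CPM in Prkd3-/- lines (Log2FC 2.20, SE 0.28, edgeR adjusted p = 0.0641). Rpl3, of the large ribosomal subunit, ranged from 32 to 61.5 CPM in WT and 89.9 to 118 CPM in Prkd3-/- lines (Log2FC 1.18, SE 0.26, edgeR adjusted p = 0.395). Whether the Prkd3-/- table was counted with the options of the WT table is not given in the sources used here, and the part of read assignment in these values was not tested.

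By annotation class, processed pseudogenes had a median Log2FC of 0.19 over 1888 genes tested and 4 of the 8 calls. Without overlap, 141 (7.47%) lay above and 79 (4.18%) below. Over all genes tested the median was 0.06, with 4.64% above and 4.12% below. Scaling by library size alone moved that median by 0.15. Transcribed processed pseudogenes, at 0.23, and genes of the class TEC, at 0.20, had similar medians. Small nucleolar RNA genes had a median of 0.72 over 155 genes, with 16 above and 1 below, and the primary median was 0.49, with 40 above and 1 below. Protein-coding genes had a median of 0.03 over 14093 genes, with 593 above and 549 below. The order of these 3 classes was thus the same in lines and in primary MEFs, in which the medians were 0.49, 0.17 and -0.01 for snoRNAs, processed pseudogenes and protein-coding genes.

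Many genes that separated the lines also separated the primary MEFs. Of 19180 genes tested in both states, 735 (3.83%) had groups that did not overlap in the same direction in both, 365 higher and 370 lower in Prkd3-/-, and 34 in opposite directions. These 735 were 44.3% of the 1659 such genes apart between the lines and 11.03% of the 6663 apart between the primary MEFs. In the primary MEFs alone, 7054 of 20403 genes (34.6%) were apart in either direction, 3438 higher and 3616 lower in Prkd3-/-. In the lines alone, 4.64% of genes tested were apart above and 4.12% below. Protein-coding genes made up 512 and processed pseudogenes 102 of the 735. For 281 of them (38.2%) the Log2FC in the lines was within 0.25 of that in primary MEFs. Of 142 genes called in primary MEFs and tested in the lines, 121 had the same sign and 75 were also apart in the lines. Lines and primary cultures share clone numbers and tables, so the states are not independent.

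Phyhip, Uggt2, Ncoa4, Arhgap22 and Ppp1r3e, all on chromosome 14, were among the protein-coding genes with the smallest p-values that were apart in both states. Phyhip (chr14:70457476-70468832, plus strand), a protein that binds phytanoyl-CoA hydroxylase, had 6.34, 6.79 and 8.27 CPM in WT and 0.0373, 0.189, 0.20 and 0.133 CPM in Prkd3-/- lines (Log2FC -5.64, SE 0.56, edgeR adjusted p = 0.0265, primary Log2FC -5.42). Uggt2 (chr14:118985039-119099430, minus strand), a glucosyltransferase of glycoprotein folding in the endoplasmic reticulum, had 146, 129 and 125 CPM in WT and 25.3, 24, 44.3 and 34 CPM in Prkd3-/- lines (Log2FC -2.06, SE 0.25, edgeR adjusted p = 0.0605, primary Log2FC -2.06). The Prkd3-/- values of both genes lay well under the lowest WT value, by a nearly equal Log2FC in each state.

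Ncoa4 (chr14:32159865-32179855, plus strand), the receptor that carries ferritin to autophagosomes, had 4.41, 4.57 and 5.47 CPM in WT and 12.8, 14.6, 15.9 and 15.1 CPM in Prkd3-/- lines (Log2FC 1.60, SE 0.21, edgeR adjusted p = 0.0874, primary Log2FC 1.60). Ppp1r3e, a regulatory subunit of protein phosphatase 1 in glycogen metabolism, ranged from 1.07 to 1.54 CPM in WT and 4.67 to 9.05 CPM in Prkd3-/- lines (Log2FC 2.50, SE 0.35, edgeR adjusted p = 0.0983, primary Log2FC 2.31). Arhgap22, a GTPase-activating protein for Rac, had 1.16, 0.745 and 1.56 CPM in WT and 38.5, 31.3, 8.78 and 30.9 CPM in Prkd3-/- lines (Log2FC 4.56, SE 0.61, edgeR adjusted p = 0.0923). Unlike the others it differed more between the lines than between primary MEFs, where the Log2FC was 1.65. Of the 181 genes called by DESeq2, 19 were on chromosome 14, which held 686 of the 19683 genes that edgeR tested. DESeq2 and edgeR tested different sets of genes, so these counts give no common share. The 19 are not all separate, since they include both Mir686 and Psmb5, in whose exons Mir686 lies. Of the genes tested in both states, 6.84% on chromosome 14 were apart in both, beside 3.83% over all genes. This was the highest share of any chromosome.

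Genes on other chromosomes were also apart in both states, some with a nearly equal Log2FC and others with one larger in size in the lines. Capza1, a capping protein of actin filaments on chromosome 3, ranged from 17 to 24.7 CPM in WT and 59.4 to 83 CPM in Prkd3-/- lines (Log2FC 1.62, SE 0.23, edgeR adjusted p = 0.0983, primary Log2FC 1.68). Fxyd6, a regulator of the sodium pump, ranged from 4.06 to 20.6 CPM in WT and 0 to 0.108 CPM in Prkd3-/- lines (Log2FC -8.25, primary -5.43). Gbp2b, an interferon-inducible GTPase, ranged from 0.381 to 26.2 CPM in WT and 0 to 0.0154 CPM in Prkd3-/- lines, with at most 1 count in any Prkd3-/- line. Gbp2b had 13.2, 13 and 12.2 CPM in WT and 0, 0.0191 and 0 CPM in Prkd3-/- primary MEFs. Ubash3b, a phosphatase of tyrosine kinase signalling, ranged from 1.84 to 2.72 CPM in WT and 7.91 to 16.4 CPM in Prkd3-/- lines (Log2FC 2.41, primary 0.56), and Btg3, an antiproliferative protein, from 0.751 to 1.05 CPM in WT and 3.03 to 7.96 CPM in Prkd3-/- lines (Log2FC 2.55, primary 1.54). Cd200, a surface glycoprotein, had 44, 25.7 and 34.6 CPM in WT and 0.0373, 0.743, 2.89 and 0.583 CPM in Prkd3-/- lines (Log2FC -5.03, SE 1.11, edgeR adjusted p = 0.404, primary Log2FC -3.21). Camk2a, a calcium/calmodulin-dependent kinase, ranged from 3.57 to 11.1 CPM in WT and 0.522 to 1.99 CPM in Prkd3-/- lines (Log2FC -2.40 in the lines and -2.39 in primary MEFs).

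Around Prkd3, 136 genes within 10 Mb on chromosome 17 were tested, a count that includes Prkd3 itself. Of these 0 were called by edgeR, and 8 lay higher and 5, with Prkd3 among them, lower without overlap. This share of 9.56% was near the 8.75% over all genes tested, and the median Log2FC was 0.04. DESeq2 called Gm6548 (adjusted p = 0.000105) and 5031415H12Rik (adjusted p = 0.00321) among them. Gm6548 (chr17:78850792-78851956, minus strand), a processed pseudogene close to Prkd3, had 46, 47.7 and 38.6 CPM in WT and 12.7, 16.2, 21.5 and 14.7 CPM in Prkd3-/- lines (Log2FC -1.44, SE 0.23, edgeR adjusted p = 0.15) and was called in primary MEFs (Log2FC -1.27).

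**Figure D3:**
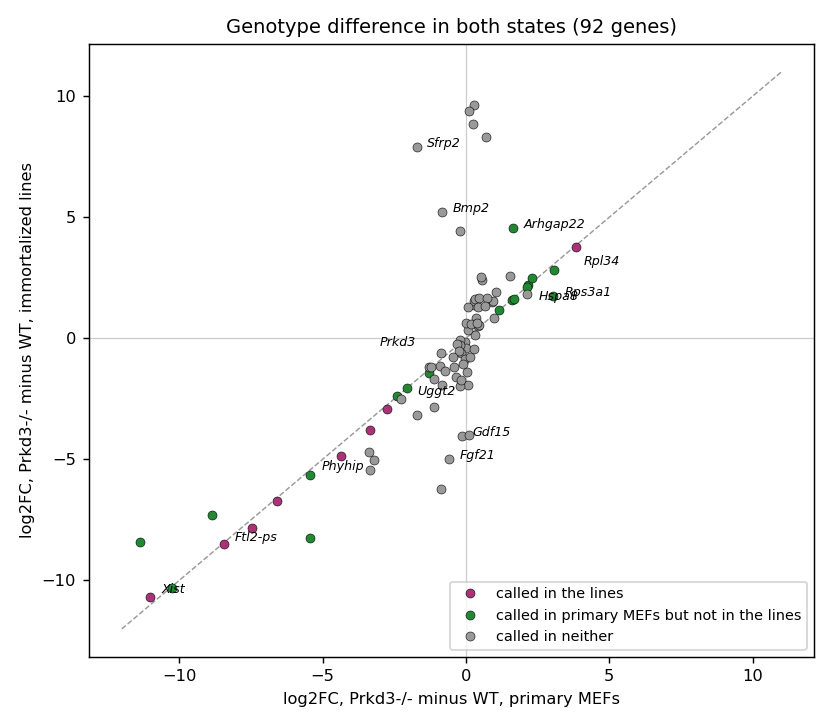
Log2FC (Prkd3-/- minus WT) in primary MEFs on the x axis against that in immortalized lines on the y axis for 92 genes chosen for description, coloured by where edgeR called them, with a dashed line of equal values. The 8 genes called in the lines lie close to the dashed line, and genes such as Sfrp2, Bmp2 and Gdf15 lie off it, none of them called by edgeR in either state.

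The listed pathways held no gene called between the lines. Of 951 genes in 30 lists, 884 were tested and 0 passed edgeR's thresholds, while DESeq2 called 7 of them (Cdh3, Itga11, Pitx1, Fgf21, Bmp2, Wnt10a and Sfrp2). With each line left out in turn, the median kept its sign in 11 of the 30 lists and changed it in 19. The groups below are therefore described by their counts and medians, beside a median of 0.06 and shares of 4.64% above and 4.12% below over all genes tested.

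Proliferation genes had higher values in Prkd3-/- lines, but none passed. All 32 had a positive Log2FC, with a median of 1.35, and in 10 every Prkd3-/- line lay above every WT line. All 32 were highest in Prkd3-/- line 13, and 30 of 32 were lowest in WT line 5. The median was 0.79 without line 13 and 1.02 without WT line 5. Their summed level was 1821, 1216 and 706 CPM in WT lines 3, 4 and 5 and 5767, 1552, 1671 and 2805 CPM in Prkd3-/- lines 13, 13a, 14 and 15, so that lines 13a and 14 lay below WT line 3. In primary MEFs the median was 0.41.

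Mki67, the Ki-67 antigen of cycling cells, had 213, 139 and 42.5 CPM in WT and 499.6, 86.8, 89.8 and 265 CPM in Prkd3-/- lines, with overlap (Log2FC 0.84, SE 0.78, edgeR adjusted p = 0.822). Genes of DNA replication were among those without overlap. Pcna, the sliding clamp, had 31.2, 26.9 and 16.9 CPM in WT and 109, 44.6, 42.2 and 50.6 CPM in Prkd3-/- lines (Log2FC 1.30, SE 0.41, edgeR adjusted p = 0.668). Mcm2, a subunit of the replicative helicase, had 59.2, 45.2 and 21.7 CPM and 234, 83.1, 65.1 and 140.1 CPM (Log2FC 1.63, SE 0.54, edgeR adjusted p = 0.67). In both genes line 13 was far above the other Prkd3-/- lines and WT line 5 was lowest. Mcm6, of the same helicase, ranged from 25.2 to 86 CPM in WT and 101 to 278 CPM in Prkd3-/- lines (Log2FC 1.66, SE 0.55, edgeR adjusted p = 0.67). Rrm2, a subunit of ribonucleotide reductase, ranged from 30.5 to 62.2 CPM in WT and 84.7 to 283 CPM in Prkd3-/- lines (Log2FC 1.67, SE 0.51, edgeR adjusted p = 0.649). Outside the list, Orc6, of the origin recognition complex, ranged from 10.5 to 13.1 CPM in WT and 22.5 to 43.2 CPM in Prkd3-/- lines (Log2FC 1.27, SE 0.29, edgeR adjusted p = 0.405). Hjurp, the chaperone of the centromeric histone Cenpa and also outside the list, had 41.5, 35.1 and 28.1 CPM in WT and 168, 76.6, 119 and 163 CPM in Prkd3-/- lines (Log2FC 1.91, SE 0.32, edgeR adjusted p = 0.174). DESeq2 called Hjurp (adjusted p = 0.000205). Among the 25 genes of the RB, E2F and cyclin list 22 had a positive Log2FC, with a median of 0.49, and 2 lay above without overlap. In this list 17 genes were highest in line 13 and 12 lowest in WT line 5, and the median was 0.31 without line 13 and 0.38 without WT line 5. Without line 13 the Log2FC fell to 0.87 for Pcna, 1.19 for Mcm2, 1.24 for Mcm6 and 1.19 for Rrm2.

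Prkd3-/- line 13 was the only line with almost no RNA of Cdkn2a and Cdkn2b. Cdkn2a, which encodes p16INK4a and p19ARF, had 76.5, 59.7 and 211 CPM in WT and 0.224, 184, 67.9 and 83.8 CPM in Prkd3-/- lines. Cdkn2b, which encodes p15INK4b, had 20.9, 29.8 and 102 CPM in WT and 0.131, 58.4, 31.4 and 23 CPM in Prkd3-/- lines. Mtap, the neighbouring methylthioadenosine phosphorylase gene, had 98, 66.2 and 121 CPM in WT and 288, 126, 82.9 and 66.7 CPM in Prkd3-/- lines and was thus highest in line 13. The Prkd3-/- primary culture of clone 13 had 65.2 CPM of Cdkn2a and 85.6 CPM of Cdkn2b. No gene of the INK4 and CIP/KIP list separated the genotypes.

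Genes of the p53 pathway did not pass either, with 11 of 30 positive and a median of -0.17, which was 0.061 without line 13, the lowest line for 18 of the 30. Trp53, which encodes p53, had 149.6, 105 and 130.4 CPM in WT and 255, 104, 165 and 136 CPM in Prkd3-/- lines, and Cdkn1a, the p21 inhibitor induced by p53, had 318, 403 and 537 CPM and 107, 220.3, 405 and 239 CPM (Log2FC -0.79, SE 0.43, edgeR adjusted p = 0.751). Gdf15, a stress-induced cytokine, and Sfn, a 14-3-3 protein of cell cycle arrest, were the 2 members without overlap. Gdf15 had 19, 2.73 and 2.34 CPM in WT and 0.392, 0.73, 0.384 and 0.424 CPM in Prkd3-/- lines (Log2FC -4.05, SE 0.83, edgeR adjusted p = 0.343), and its primary Log2FC was -0.14. Sfn ranged from 0.39 to 2.88 CPM in WT and 0.203 to 0.354 CPM in Prkd3-/- lines (Log2FC -2.50, primary -2.27). Tert, the catalytic subunit of telomerase, ranged from 2.38 to 3.75 CPM in WT and 0.317 to 3.44 CPM in Prkd3-/- lines.

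Extracellular matrix genes had lower values in Prkd3-/- lines, without calls. Collagens had a median Log2FC of -0.76 (20 of 25 negative, 2 below without overlap), proteoglycans and matricellular genes -0.60 (25 of 33 negative, 4 below and 1 above) and matrix proteases and inhibitors -0.59 (20 of 24 negative, 2 below). In primary MEFs the medians were -0.68, -0.61 and -0.37. Line 13 was the lowest line for 16 of 25 collagens, and without it the 3 medians of the lines were -0.63, -0.39 and -0.40. Without WT line 5 the median of proteases and inhibitors was -0.077 and that of proteoglycans -0.39. Without WT line 4 that of collagens was -0.49 and that of proteoglycans -0.40, and without Prkd3-/- line 14 that of proteoglycans was -1.04 and that of proteases -0.90. The 15 fibroblast markers, which share collagens with these lists, had a median of -0.73, which was -0.39 without line 13, -0.48 without WT line 4 and -0.38 without WT line 5.

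Col1a1, the main chain of type I collagen, had 22146, 38376 and 13268 CPM in WT and 7607, 13656, 13728 and 8475 CPM in Prkd3-/- lines (Log2FC -1.18, SE 0.44, edgeR adjusted p = 0.711), with WT line 5 among the Prkd3-/- values. Col5a1, of type V collagen, had 5855, 6916 and 1873 CPM in WT and 1130.1, 1589.9, 1869.5 and 1809 CPM in Prkd3-/- lines (Log2FC -1.61, SE 0.45, edgeR adjusted p = 0.585), and the groups only just did not overlap. Col12a1, a collagen that associates with fibrils, had 1633, 7253 and 6396 CPM and 785, 1091, 1435 and 2024 CPM, with WT line 3 inside the Prkd3-/- range (Log2FC -1.93, SE 0.55, edgeR adjusted p = 0.617). Col3a1 and Fbln5, of type III collagen and elastic fibres, overlapped, with Log2FC of -1.18 and -1.16. Col16a1 ranged from 197 to 264 CPM in WT and 97.1 to 183 CPM in Prkd3-/- lines (Log2FC -0.76). Fbn1, the fibrillin of microfibrils, ranged from 1310.2 to 3158 CPM in WT and 473 to 1256 CPM in Prkd3-/- lines (Log2FC -1.41, SE 0.42, edgeR adjusted p = 0.641), and 20.1% of its exonic bases are shared with Gm9913. Adamts12 and Mmp11, 2 metalloproteinases, overlapped between genotypes, with Log2FC of -1.35 and -1.06.

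Among adhesion genes, Itga11 and Cdh3 had lower values in every Prkd3-/- line. Itga11, the integrin subunit that binds fibrillar collagen, had 361, 718 and 425 CPM in WT and 11.2, 67.9, 107 and 91 CPM in Prkd3-/- lines (Log2FC -2.85, SE 0.69, edgeR adjusted p = 0.45). Cdh3, P-cadherin, had 165, 122 and 69.2 CPM in WT and 46.9, 23.2, 27.2 and 26.6 CPM in Prkd3-/- lines (Log2FC -1.94, SE 0.37, edgeR adjusted p = 0.246). Neither overlapped, and DESeq2 called both with adjusted p-values of 0.00616 and 0.00162. In primary MEFs Itga11 overlapped and the Log2FC of Cdh3 was 0.07. Of 17 integrins, 9 had a positive and 8 a negative Log2FC. Igfbp7, a secreted binding protein of insulin-like growth factors, had 1302, 354 and 842 CPM in WT and 205, 303, 184 and 165 CPM in Prkd3-/- lines (Log2FC -1.96, SE 0.44, edgeR adjusted p = 0.408).

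**Figure D4:**
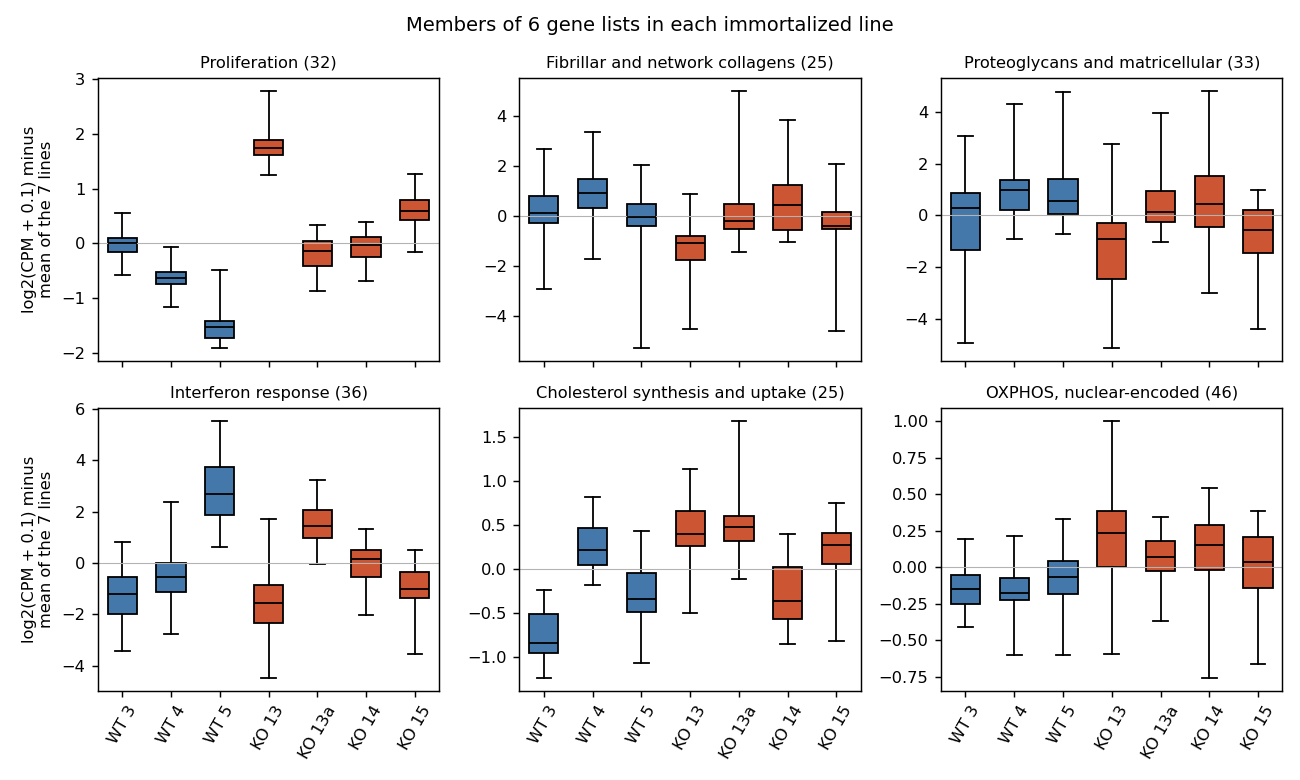
For the tested members of 6 gene lists (number in parentheses), log2(CPM + 0.1) in each immortalized line minus the gene's mean over the 7 lines, as boxes of the quartiles with the median and whiskers to the extremes (blue WT, red Prkd3-/-). Proliferation genes are highest in Prkd3-/- line 13 and lowest in WT line 5, interferon response genes are highest in WT line 5, and only the oxidative phosphorylation list has all 4 Prkd3-/- medians above all 3 WT medians.

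Among signalling genes none passed edgeR's test. The groups did not overlap in 7.7% of Wnt, 7.3% of TGF-beta and BMP and 9.1% of receptor tyrosine kinase genes tested. These shares were near the 8.75% over all genes tested. Among Wnt pathway genes, Sfrp2, a secreted Wnt antagonist, had 0.0157, 0.464 and 0.571 CPM in WT and 1.4, 50.1, 259 and 29.5 CPM in Prkd3-/- lines (Log2FC 7.92, SE 2.04, edgeR adjusted p = 0.494), against 47.7, 45.7 and 83.7 CPM and 39.2, 2.54 and 11.8 CPM in primary MEFs. Wnt10a, a Wnt ligand, had 27.9, 1.61 and 39.5 CPM in WT and 1.6, 0.0676, 0.184 and 0.305 CPM in Prkd3-/- lines (Log2FC -5.43, SE 1.39, edgeR adjusted p = 0.494), and WT line 4 and Prkd3-/- line 13 almost met. Lgr4, a receptor for R-spondins, ranged from 59.7 to 152 CPM in WT and 13.5 to 57.3 CPM in Prkd3-/- lines (Log2FC -1.73). Over the 39 Wnt pathway genes tested, 1 lay above and 2 below without overlap, and the median was -0.10.

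Bmp2, a bone morphogenetic protein ligand, had 0, 0.182 and 0.0451 CPM in WT and 5.58, 2.59, 0.461 and 2.92 CPM in Prkd3-/- lines (Log2FC 5.23, SE 1.35, edgeR adjusted p = 0.494), while primary MEFs of both genotypes expressed it, with 5.37, 5.11 and 8.38 CPM and 6.55, 1.3 and 2.66 CPM. Of 41 TGF-beta and BMP pathway genes tested, 2 lay above and 1 below, with a median of -0.25. Met, the receptor of hepatocyte growth factor, had 37.7, 14.3 and 41.3 CPM in WT and 101, 54.9, 55.4 and 99.8 CPM in Prkd3-/- lines (Log2FC 1.32, SE 0.44, edgeR adjusted p = 0.67). Fgf21, an endocrine fibroblast growth factor, ranged from 0.345 to 1.09 CPM in WT and 0 to 0.053 CPM in Prkd3-/- lines (Log2FC -4.98), and Areg, a ligand of the epidermal growth factor receptor, from 0.166 to 0.299 CPM in WT and 0.276 to 1.29 CPM in Prkd3-/- lines (Log2FC 1.82, primary 2.14). Tek, the angiopoietin receptor and an endothelial marker, ranged from 0.142 to 0.33 CPM in WT and 0.429 to 13.1 CPM in Prkd3-/- lines. DESeq2 called it (adjusted p = 0.00385), and 5 of the 7 endothelial markers tested had a positive Log2FC.

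Positional transcription factors that primary MEFs of both genotypes expressed were counted in some lines and almost absent from others. Hoxa13, a factor of the distal limb and hindgut, had 0, 0.0166 and 0 CPM in WT and 19.4, 2.16, 0 and 1.17 CPM in Prkd3-/- lines. Hoxd10 and Hoxd11, 2 neighbouring limb genes, had 12.7, 6.11, 0 and 0.716 CPM and 45.1, 7.93, 0 and 2.69 CPM in Prkd3-/- lines 13, 13a, 14 and 15 and at most 0.0166 and 0.0828 CPM in a WT line. All 3 were thus higher in Prkd3-/- lines 13, 13a and 15 than in line 14, where they were at 0, and in the WT lines, where they were at or near 0. In primary MEFs Hoxa13 had 13.9, 14.4 and 19.5 CPM in WT and 34.4, 1.47 and 21.9 CPM in Prkd3-/- cultures, so that clone 14 was low before immortalization.

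Pitx1, a factor of the hindlimb, had 12.9, 0.0828 and 7.04 CPM in WT and 0.0186, 0.284, 0.0307 and 0.0133 CPM in Prkd3-/- lines, with WT line 4 inside the Prkd3-/- range (Log2FC -6.21, SE 1.69, edgeR adjusted p = 0.551). Zic5, a zinc finger factor, had at most 1 count in any WT line and 0.205, 0.149, 12 and 1.03 CPM in Prkd3-/- lines. Gata6, a GATA factor of heart and endoderm, had 5.04, 1.69 and 6.01 CPM in WT and 20.8, 32.6, 35.9 and 7.62 CPM in Prkd3-/- lines (Log2FC 2.51, SE 0.66, edgeR adjusted p = 0.509). The imprinted gene Asb4 ranged from 10.9 to 72.6 CPM in WT and 0.0932 to 5.99 CPM in Prkd3-/- lines (Log2FC -3.98). Over 34 Hox genes tested, 18 had a positive and 16 a negative Log2FC (median 0.02), and over 48 limb and positional factors 26 and 22 (median 0.17).

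Interferon response genes had the most negative median of all lists between the lines, -1.16, with 35 of 36 negative. In the lines this sign rested on 1 line. WT line 5 was the highest line for 35 of the 36, and without it the median was 1.13. In primary MEFs the median of this list was also negative, -1.01 over 40 genes tested. Ifit1, an antiviral protein that binds foreign RNA, had 0.393, 2.75 and 234 CPM in WT and 0.783, 27.5, 3.09 and 3.37 CPM in Prkd3-/- lines (Log2FC -3.18, SE 1.97, edgeR adjusted p = 0.761). Isg15, a ubiquitin-like modifier, had 0.535, 2.14 and 53.7 CPM and 0.597, 20.8, 1.89 and 0.278 CPM. In both, Prkd3-/- line 13a came next after WT line 5. Irf7, a transcription factor of the response, ranged from 0.787 to 20.5 CPM in WT and 0.709 to 10.7 CPM in Prkd3-/- lines. The lists of MHC class I presentation and of chemokines and cytokines had medians of -0.19 and -0.69, with 0 genes apart in either, and without WT line 5 the medians were 0.30 and 0.42.

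Metabolic lists shifted by less. All 25 genes of cholesterol synthesis and uptake had a positive Log2FC, with a median of 0.43 and 0 genes apart, and 18 of the 25 were lowest in WT line 3. Without that line the median was 0.21, without Prkd3-/- line 13a it was 0.28, and without WT line 4 it was 0.69. Sqle, squalene epoxidase, had 95.1, 179 and 138 CPM in WT and 226, 262, 147 and 210.2 CPM in Prkd3-/- lines (Log2FC 0.62, SE 0.29, edgeR adjusted p = 0.739). Nuclear genes of oxidative phosphorylation were positive in 41 of 46, with a median of 0.22, and 8 lay above without overlap. Cox7a2 and Cox7c, subunits of cytochrome c oxidase, ranged from 29.9 to 40.3 CPM in WT and 48.9 to 58.9 CPM in Prkd3-/- lines and from 1.61 to 2.0 CPM in WT and 2.82 to 3.67 CPM in Prkd3-/- lines. Scaling by library size alone moved the median of all genes by 0.15, which is of the size of these medians. Gclc, the catalytic subunit of glutathione synthesis, ranged from 26.6 to 31 CPM in WT and 37.7 to 49.2 CPM in Prkd3-/- lines (Log2FC 0.57, SE 0.18, edgeR adjusted p = 0.668), and 23 of 34 antioxidant genes were positive (median 0.14).

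The remaining lists had medians between -0.34 and 0.26. Contractile genes had a median of -0.30 with 0 apart, and the median was 0.21 without WT line 3. Immediate-early and MAPK feedback genes had a median of -0.09 with 0 apart, glycolysis and hypoxia genes -0.09 with 1 below, lysosomal genes -0.11 with 1 below, and cytosolic ribosomal proteins 0.16 with 3 above (0.081 without line 13, the highest line for 28 of 42). DNA methylation and Polycomb genes had a median of 0.06 with 1 above, imprinted genes 0.17 with 1 below, cadherins 0.26 with 3 below (-0.39 without Prkd3-/- line 14), receptor tyrosine kinase genes -0.13 with 2 above and 2 below, and histone and nuclear RNA genes -0.34 with 2 below.

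Whole chromosomes shifted in single lines. Each line was set against the primary MEFs of its genotype, as the median log2 ratio of a chromosome's genes relative to all autosomes. Chromosome 7 was at -0.61 in Prkd3-/- line 14 and between -0.17 and 0.01 in the other lines. Chromosome 6 was at 0.53 and chromosome 16 at -0.54 in Prkd3-/- line 15, and chromosome 18 was at 0.44 in Prkd3-/- line 13. Among WT lines the largest was chromosome 10 in line 4, at 0.46. Chromosomes 3 and 4 were below 0 in all 7 lines. Chromosome 3 ranged from -0.02 in Prkd3-/- line 13 to -0.32 in WT line 5. Chromosome 4 ranged from -0.09 in WT line 3 to -0.63 in Prkd3-/- line 15.

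**Figure D5:**
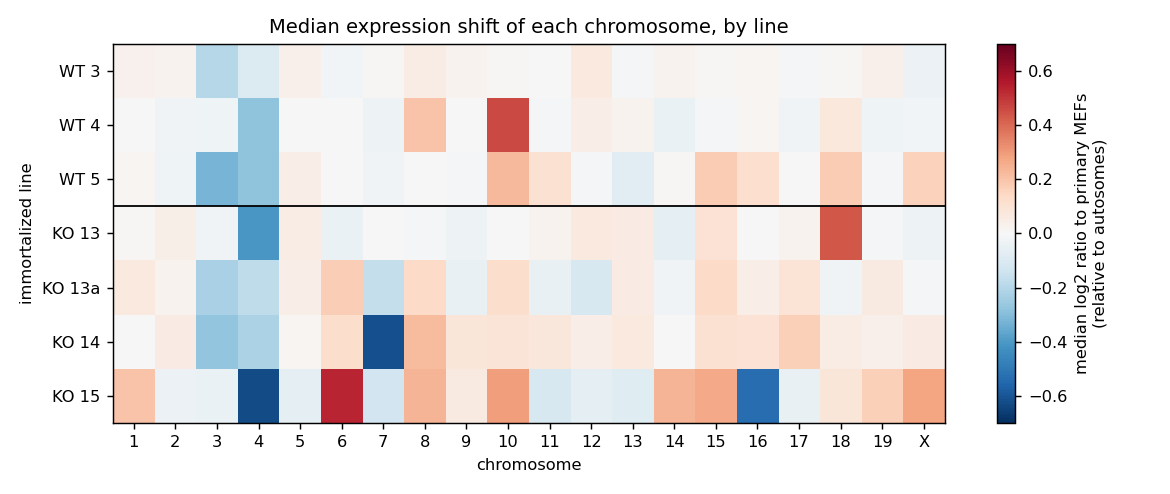
Median log2 ratio of each chromosome's genes in an immortalized line to primary MEFs of its own genotype, set against that of the autosomes together, with lines as rows, chromosomes as columns and the ratio as colour. Chromosomes 7 in line 14 and 4, 6 and 16 in line 15 stand out among Prkd3-/- lines, and chromosome 10 in line 4 among WT lines.

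The comparison of the genotypes held the same shifts. The median Log2FC between Prkd3-/- and WT lines, relative to autosomes, was 0.23 for 1011 genes of chromosome 6 and -0.23 for 1512 genes of chromosome 7, while in primary MEFs it was -0.04 and -0.02. Without line 15 the median of chromosome 6 was 0.10, and without line 14 that of chromosome 7 was -0.10. Met and Hoxa13 lie on chromosome 6 and Prkd2, Sphk2, Fgf21, Ftl1 and Mki67 on chromosome 7, and the part of chromosome number in their values was not tested.

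Whether the genotype difference of the lines was other than that of the primary MEFs was put to an interaction test on the 13 libraries. Of 21197 genes 0 passed an adjusted p-value of 0.05 in edgeR (0%), with 841 at an unadjusted p under 0.05, and DESeq2 called 37. With the clone number as a replicate block the number was also 0, with 426 at an unadjusted p under 0.05. The smallest p-values for a difference more positive in lines belonged to Pgbd5, Fgfbp1, St6galnac3, Icam2 and Arhgap18, and for one more negative to Rem1, Gys1, Gm16175, Nr4a3 and Bcl3. Fgfbp1 and Icam2 were not tested between the lines, where they reached at most 0.322 and 0.0921 CPM. About 64.9% of the exonic bases of Gm16175 are shared with Bcl3. Gys1, glycogen synthase of muscle, had 75.9, 73.5 and 83.1 CPM in WT and 53.7, 54.4, 41.9 and 45.3 CPM in Prkd3-/- lines. Arhgap18, a GTPase-activating protein, had 4.03, 6.76 and 8.5 CPM in WT and 13.8, 10.1, 21.1 and 11.5 CPM in Prkd3-/- lines, and Bcl3, a nuclear partner of NF-kappaB, 11.3, 16.5 and 48.5 CPM and 3.71, 4.34, 6.83 and 2.92 CPM. In all 3 the lines of the genotypes did not overlap. In primary MEFs the Log2FC was 0.20 for Gys1 and -1.07 for Arhgap18, opposite to the lines and without overlap. For Bcl3 it was 0.43, with overlap. The unadjusted edgeR p of the interaction was 0.000684 for Gys1, 0.000363 for Arhgap18 and 0.000943 for Bcl3. The edgeR adjusted p was above 0.99 for each.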

How the data were processed

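Per the file headers and the submitters' processing notes, the authors mapped read pairs to the mouse genome (mm10, GRCm38) with STAR 2.7.10a, handled alignments with SAMtools 1.18 and counted pairs per Ensembl gene with featureCounts of Subread 2.0.6, and deposited raw counts in 1 table per genotype. In the WT table the counting ignored strand and gave a pair to every gene it overlapped, while the options behind the Prkd3-/- table are not given in the sources used here.

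The tables were joined on 55487 gene IDs, 55227 of which had a symbol. The deposited counts of the 7 immortalized libraries were fitted with edgeR 4.0.16 in R 4.3.3 (quasi-likelihood test, TMM, filterByExpr, robust estimation, Benjamini-Hochberg adjustment over all genes tested). Primary MEFs were fitted likewise, and the interaction used all 13 libraries. The standard error is |Log2FC| divided by the square root of F. Groups that do not overlap, or are apart, have every line of 1 genotype above every line of the other in CPM. Alternatives were DESeq2 1.42.0, limma 3.58.1, other scalings, filters and thresholds, a joint fit, lines 13 and 13a summed and each library left out. The fits were tested on simulated data. Floors of 3 counts cover counting error only, since PCR copies are not independent molecules.

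Prkd3, its neighbours, called genes and genes of the interaction were named by rule. The lines, the lists and the rule were chosen with earlier results of these data known, and genes named without passing were chosen after their values were seen.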

Additional observations from a re-analysis of the deposited data

Results flagged for a closer look

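In 92 genes the 4 Prkd3-/- lines were checked for a line far from the other 3. By Dixon's ratio of the gap to the whole range 14 genes had one, in each case the highest line. The cutoff flags about 1 gene in 20 by chance where values are independent and normally distributed. CPM need not be, and many of these genes were chosen after their values were seen, so the number flagged cannot be set against that rate. Line 13 stood alone as the highest line for Rpl34 (68.2 CPM), Pcna (109 CPM), Orc6 (43.2 CPM), Cdh3 (46.9 CPM), Wnt10a (1.6 CPM) and Hoxa13 (19.4 CPM). Line 13a stood alone as the highest for the interferon response genes Ifit1 (27.5 CPM), Isg15 (20.8 CPM) and Irf7 (10.7 CPM), and at low values for Gdf15 (0.73 CPM), Pitx1 (0.284 CPM) and Fxyd6 (0.108 CPM). Line 14 was far above the others for Zic5 (12 CPM), and line 15 was the only Prkd3-/- line with a count of Tsix (0.106 CPM). Groups of 3 lines were not checked in this way.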

How the results depend on the processing

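The number of genes called between Prkd3-/- and WT lines, 8 in edgeR, was 181 with DESeq2, 5 with limma-voom, 55 in a joint fit with the primary MEFs, 13 with a threshold of 0.05 for the adjusted p-value and 0 to 10 with each line left out. For primary MEFs, 156 became 837 with DESeq2, 88 with at least 10 counts in every library, 607 with that threshold and 2 to 1456 with each library left out, the highest without Prkd3-/- clone 14. For the interaction, 0 became 37 with DESeq2 and 0 to 2 with each line left out. The immortalized groups share no clone number, so a pairing by number exists only between states, and with it as a replicate block the interaction stayed at 0. Summing lines 13 and 13a raised the share of genes without overlap from 8.75% to 13.5%, since fewer lines have to agree. The causes of the other changes were not tested.

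Of 91 genes followed under the alternatives, 1303 of 1420 values kept their direction and their side of the threshold and 16 changed sign. With library size alone Prkd2 had a Log2FC of 0.0099 and Prkcd of 0.076, and with lines 13 and 13a summed Prkcd had 0.046. With each line left out the Log2FC ranged from -0.17 to 0.54 for Prkd1, from -0.28 to 0.14 for Prkcd, from -0.19 to 1.51 for Eif2s3y, from -1.19 to 0.28 for Cdkn2a, from -1.48 to 0.14 for Cdkn2b, from -0.046 to 0.80 for Mtap, from -5.03 to 2.45 for Ifit1, from -4.35 to 2.12 for Isg15 and from -2.81 to 1.03 for Irf7. Medians of 8 gene lists were followed under alternatives chosen after seeing the data, and with each line left out that of the proliferation list ranged from 0.79 to 1.74 and that of the interferon response list from -1.98 to 1.13. With 3 and 4 lines that vary this much, a difference that missed the threshold is not shown to be absent.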

Other observations

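Among the genes with the smallest p-values in the interaction test, Rem1, St6galnac3 and Bcl3 were apart between the lines and overlapped between the primary MEFs. Pgbd5, Arhgap18, Gys1 and Gm16175 were apart in opposite directions, and Nr4a3 was apart in the primary MEFs alone. Rem1, a small GTPase of the RGK family, had 12, 2.63 and 3.5 CPM in WT lines 3, 4 and 5, 0.135 CPM in Prkd3-/- line 13a and 0 in lines 13, 14 and 15. Pgbd5, a transposase-derived gene, had 0.0944, 0.116 and 0.135 CPM in WT and 0.317, 0.648, 0.307 and 0.557 CPM in Prkd3-/- lines, against 1.53 to 2.89 CPM in WT and 0.438 to 0.868 CPM in Prkd3-/- primary MEFs. St6galnac3, a sialyltransferase, was at 0 in all 3 WT lines and at 0.0559 to 0.27 CPM in Prkd3-/- lines, close to the 3-count floor. Nr4a3, an immediate-early nuclear receptor, overlapped between the genotypes, with 1.7, 3.54 and 1.94 CPM in WT and 1.72, 2.27, 2.33 and 1.74 CPM in Prkd3-/- lines, and its primary Log2FC was 1.92.

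Of the 181 genes that DESeq2 called between the lines, 102 were protein-coding. For 172 of them primary MEFs gave a value, the sign was the same in 156, and 55 were also called by edgeR in primary MEFs.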
